A study of Mus musculus with 8 samples.

Results

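The genes compared here were the 7 inhibitors of cyclin-dependent kinases (CDKs), Cdkn1a (p21), Cdkn1b (p27), Cdkn1c (p57), Cdkn2a (p16Ink4a and p19Arf), Cdkn2b (p15), Cdkn2c (p18) and Cdkn2d (p19Ink4d), with Trp53, which encodes p53, and the pocket protein genes Rb1 and Rbl2 (p130). They were taken by name, 10 of the 36047 genes to which the counted transcripts were matched. All 10 were among the 17997 genes that passed the expression filter. RNA was sequenced from nGFP+ muscle stem cells (MuSCs) sorted from the gastrocnemius and quadriceps of 3 male mice on a vitamin A-free (VA-free) diet and 2 male mice that stayed on normal chow (control). The mice were 5 to 6 months old, and the VA-free diet lasted 8 weeks. All of the mice, controls included, carried Pax7CreERT2-Rosa26nTnG and received tamoxifen, after which cells that had expressed Pax7 switched from nuclear TdTomato to nuclear GFP, so the sort depends on Pax7 activity at the time of tamoxifen. The 4 control libraries were 1A, 1B, 2A and 2B and the 4 VA-free libraries 1B, 2A, 3A and 3B, where the number is the mouse and the letter a part of its RNA that was purified and sequenced separately, and library values are listed in this order throughout.

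MuSCs of uninjured muscle rest outside the cell cycle. Inhibitors of the Cip/Kip family (p21, p27 and p57) bind CDK2 and CDK4 complexes with their cyclins, whereas the Ink4 family (p15, p16, p18 and p19Ink4d) binds CDK4 and CDK6, and in both cases the pocket proteins stay unphosphorylated and hold E2F target genes off. Cdkn1a is a classic transcriptional target of p53, p19Arf protects p53 from Mdm2, and p130 forms the DREAM complex with E2F4 and MuvB proteins in resting cells.

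Cdkn1a was lower in VA-free MuSCs than in control, at 480 ± 58.6 CPM (SD, n = 3 mice) against 1186 ± 13.3 (n = 2), and Rbl2 was higher, at 82.7 ± 5.08 against 54.8 ± 1.02. Cdkn1b, Cdkn1c and Cdkn2d were also lower, by smaller steps. Cdkn2a, Cdkn2b, Cdkn2c, Trp53 and Rb1 did not pass the test. That made 4 of the 10 genes lower and 1 higher at an adjusted p under 0.05 (quasi-likelihood test of edgeR, Benjamini-Hochberg adjustment over all genes). Over all 17997 genes the diets differed widely, since 41.4% were called, 22.5% lower and 18.9% higher, so a count of 5 in 10 is near the background. The median log2 fold change (VA-free over control) of the 10 genes was -0.61 against 0.00 for all genes. The value was below 0 for all 7 inhibitors. Fold changes also followed gene length, as described below. Cdkn1a, Cdkn1c, Cdkn2a and Cdkn2d were among the shortest genes, whose median was -0.63. With the length trend removed, the median of the 10 genes was -0.26 against -0.03 for all genes, and Cdkn2c was above 0 (0.13). CPM are counts scaled to the library size after TMM normalization, and standard errors (SE) were derived from the F statistic of the test.

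The libraries held between 44831232 and 88650428 estimated counts each. The 3 VA-free and 2 control mice did not overlap for 8 of the 10 genes, against 63.3% of all genes (32.3% lower, 31.0% higher), and the single libraries did not overlap for 5 of them (Cdkn1a, Cdkn1c, Cdkn2b and Cdkn2d lower, Rbl2 higher), against 41.3% of all genes (21.4% lower, 19.9% higher). Libraries A and B of control mouse 2 came from the same animal but differed by 2.32-fold for Cdkn1a, 2.13-fold for Cdkn1b, 2.05-fold for Cdkn1c, 1.84-fold for Cdkn2a (18 and 11 counts), 1.65-fold for Cdkn2d and 1.57-fold for Trp53. In control mouse 1 the ratio was 2.48-fold for Cdkn2b and 6.13-fold for Cdkn2a (21 and 3 counts), and at most 1.30-fold for the other genes. In VA-free mouse 3 the same ratio was at most 1.14-fold, apart from Cdkn2a, at 1.52-fold on 3 and 5 counts. Libraries of a mouse were added before SDs were taken, so SDs between mice do not show this difference between A and B. The control SDs of Cdkn1a (13.3 CPM) and Cdkn2d (0.234 CPM) are examples. With 2 control mice, p-values rest on a spread that few animals define.

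The sorted population did not hold the same mix of RNA on the 2 diets. Of 14 MuSC markers 13 were higher in VA-free (Pax7 131.8 against 78.1 CPM; summed level 8209 to 9284 against 3299 to 5367), and all 14 endothelial markers were lower (338.1 to 465.1 against 2080 to 5810). Lower markers also numbered 9 of 10 for tenocytes (45.97 to 76.5 against 723.2 to 1297), 9 of 10 for Schwann cells (848.4 to 938.2 against 1402 to 1720) and 8 of 15 for myofibers (399.3 to 535.1 against 609.7 to 764). They numbered 5 of 14 for macrophages (31.3 to 280.9 against 302.4 to 2225) and 6 of 10 for pericytes and smooth muscle (1732 to 2020 against 2758 to 3370). In the last of these lists Notch3 was higher (860.9 against 125.2 CPM). Among markers of fibro-adipogenic progenitors 7 of 12 were lower and Col3a1 was higher (11220 against 4304 CPM). The summed level of the 12 was 17310 to 19710 against 9645 to 15670, with Col3a1 and Gsn (5918 against 5206 CPM) the most abundant. Of 23 dissociation and immediate early genes 6 were lower and 3 higher (38300 to 42600 against 32300 to 44810). Listed at 0 in at least 1 library were Ackr1, an endothelial marker, Mrc1 of macrophages, Cdh19 of Schwann cells and Kera of tenocytes. CDK inhibitors are expressed in many of these cell types, in bulk RNA fewer cells of a type and less RNA per cell cannot be told apart, and the part of these markers in the results that follow was not tested.

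**Figure D1:**
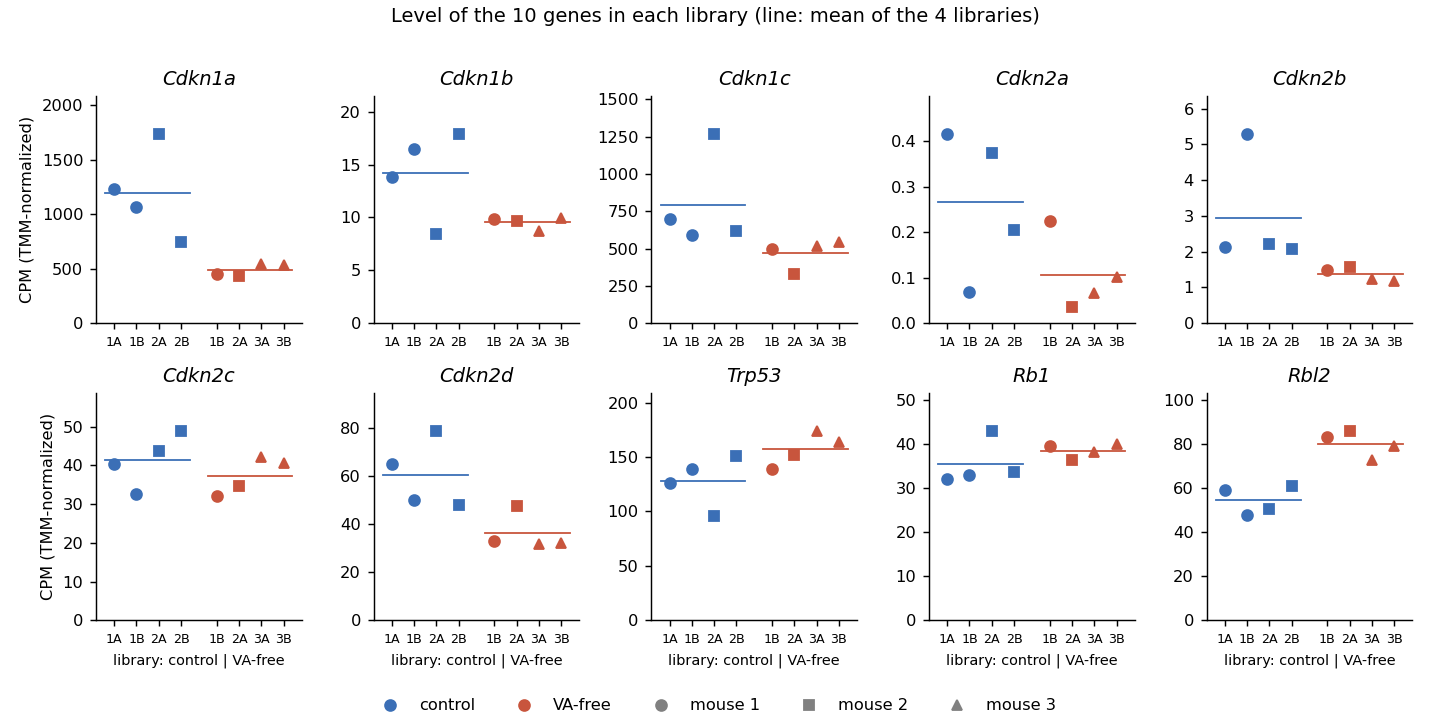
TMM-normalized CPM (each y axis from 0) of the 10 genes in the 4 control (blue) and 4 VA-free (red) libraries, with the mouse given by the shape of the point and a line at the mean of the 4 libraries. The VA-free libraries of Cdkn1a lie between 431 and 540 CPM, below all control libraries, and control 2A stands above control 2B of the same mouse for Cdkn1a and Cdkn1c and below it for Cdkn1b.

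Cdkn1a is annotated with 3 starts on chromosome 17 (GRCm38, plus strand), which set apart its 5 transcripts. The windows of 250 bases before the upstream and the middle start are shown because both groups of transcripts were counted separately. Capitals mark matches to the p53 half-site and full site in the upstream window and to the GC box GGGCGG in the middle one. Both come from the RefSeq table for GRCm38.p6.
Cdkn1a upstream start, chr17:29090729-29090978, plus strand: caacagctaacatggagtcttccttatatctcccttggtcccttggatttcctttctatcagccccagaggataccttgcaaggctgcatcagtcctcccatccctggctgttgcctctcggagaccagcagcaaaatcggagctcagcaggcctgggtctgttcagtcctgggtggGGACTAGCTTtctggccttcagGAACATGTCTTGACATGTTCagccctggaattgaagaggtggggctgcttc
Cdkn1a middle start, chr17:29093519-29093768, plus strand: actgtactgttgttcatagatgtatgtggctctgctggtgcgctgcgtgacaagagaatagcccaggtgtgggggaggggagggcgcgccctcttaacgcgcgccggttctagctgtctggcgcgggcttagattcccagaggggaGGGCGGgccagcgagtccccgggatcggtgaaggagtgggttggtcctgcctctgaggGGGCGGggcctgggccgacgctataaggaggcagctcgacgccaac
The full p53 site, searched as a half-site followed directly by another with at most 1 mismatch in all, lay 51 to 32 bases before the upstream start. Its first part is an exact half-site and its second has the mismatch. A further half-site lay 73 to 64 bases before the start. A full site was present in 19 of 32851 promoters of the same length (0.0578%) and a half-site in 7.13%. The middle window held 2 GC boxes, 104 to 99 and 46 to 41 bases before its start, and 32.7% of all promoters held at least 1. The motifs were searched on both strands and were chosen with the sequences in view, and a match is a description of the letters only.

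Cdkn1a, whose product p21 halts cells that have met damage or differentiation signals, measured 452, 431, 540 and 537 CPM in the VA-free libraries and 1236, 1063, 1742 and 750 CPM in the control libraries. All VA-free libraries thus lay below all control libraries, with the control libraries spread more widely. Control was 2.47-fold higher than VA-free (log2 fold change -1.31, SE 0.135, edgeR adjusted p = 0.000605). Cdkn1a was called lower under all 21 alternatives, with a log2 fold change between -1.61 and -0.77.

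Most Cdkn1a counts lay on transcripts from the upstream start, Cdkn1a-202 and the single-exon Cdkn1a-204, which took 56.7% to 59.6% of them in VA-free libraries and 66.9% to 68.0% in control. Their level was 256 to 317 CPM in VA-free and 510 to 1177 CPM in control. Transcripts from the middle start, Cdkn1a-201 and Cdkn1a-205, measured 128 to 177 against 214 to 521 CPM, and their share overlapped between the diets (29.6% to 32.9% against 28.6% to 30.8%). Both groups were thus lower in every VA-free library. Cdkn1a-202 (922 bases) has 0 bases that no other Cdkn1a transcript holds and ends at base 29099701. Cdkn1a-201 (1913 bases) has 12 such bases and ends at base 29100722. These transcripts thus differ at the 3' end as well as in the first exon. The split of counts between the starts can therefore also rest on reads of the 3' end, which was not tested.

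The third first exon, that of the coding transcript Cdkn1a-203, went the other way. It measured 48.6, 46.7, 45.4 and 52.8 CPM in VA-free libraries and 35.3, 24.4, 44.1 and 25.4 CPM in control libraries. The VA-free libraries lay above all control libraries, by little over control 2A. Its share of Cdkn1a counts was 8.41% to 10.8% in VA-free and 2.29% to 3.39% in control. This transcript has 497 bases that no other transcript of the annotation holds. Without it the log2 fold change of Cdkn1a was -1.42 (edgeR adjusted p = 0.000519), an alternative chosen after seeing the data. No test was run on single transcripts, whose counts are estimates that share reads.

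**Figure D2:**
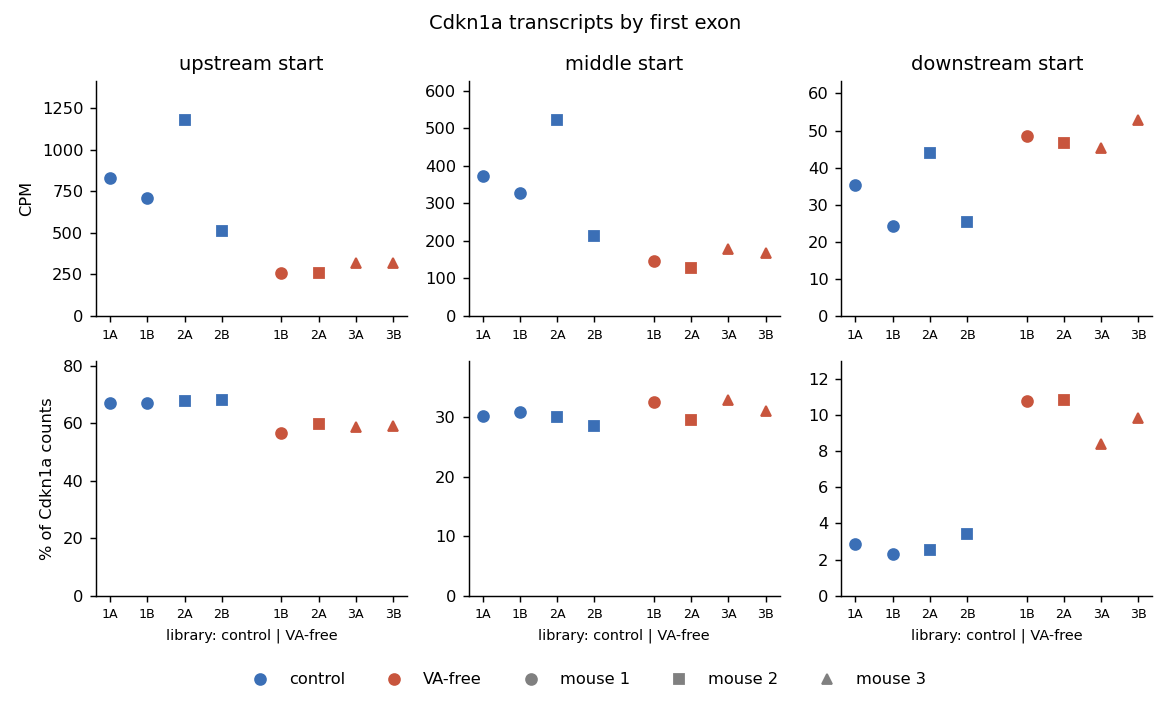
Cdkn1a transcripts grouped by first exon in each control (blue) and VA-free (red) library, as CPM (top) and as percent of all Cdkn1a counts (bottom), with the mouse given by the shape and each y axis from 0. Upstream and middle starts are lower in every VA-free library, whereas the downstream start lies at 45.4 to 52.8 CPM in VA-free and 24.4 to 44.1 CPM in control.

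Cdkn1c, an imprinted gene whose product p57 keeps progenitors out of the cycle, measured 494, 330, 517 and 544 CPM in VA-free libraries and 697, 590, 1271 and 619 CPM in control libraries. The libraries did not overlap, although VA-free 3B came close to control 1B. The means were 458 ± 111 (SD, n = 3) and 783 ± 160 CPM (n = 2), with a log2 fold change of -0.77 (SE 0.232, edgeR adjusted p = 0.0343). Cdkn1c was called in 11 of 21 alternatives, and the call was lost without VA-free mouse 1 (-0.85, adjusted p = 0.068), VA-free mouse 2 (-0.59, 0.0606) or control mouse 2 (-0.55, 0.152), and without control libraries 1A (-0.72, 0.0734), 2A (-0.50, 0.0925) or 2B (-1.03, 0.0767), each in edgeR. Leaving out control 2A thus moved the value by over 1.5 times. All 4 of its coding transcripts kept overlapping shares, with Cdkn1c-201 at 53.3% to 57.3% in VA-free and 54.3% to 56.3% in control. Annotated antisense genes overlap exons of Cdkn1a and Cdkn1c, neither was among the transcripts counted, and without strand their reads would count as Cdkn1a or Cdkn1c.

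Cdkn1b was a minor Cip/Kip gene in these cells. Its product p27 is a general brake on CDK2 that is mostly set by protein degradation. It measured 9.89, 9.69, 8.68 and 9.92 CPM in VA-free libraries and 13.8, 16.4, 8.43 and 17.9 CPM in control libraries. Control 2A lay below all VA-free libraries, so the libraries overlapped. Summed per mouse, the levels were 9.76 ± 0.336 (SD, n = 3) and 14.3 ± 1.81 CPM (n = 2), with a log2 fold change of -0.55 (SE 0.169, edgeR adjusted p = 0.0375). Cdkn1b was called in 9 of 21 alternatives, and each of VA-free mice 1, 2 and 3, control mouse 1 and control libraries 1B and 2B was needed for the call, with edgeR adjusted p between 0.0508 and 0.581 when 1 of them was left out. Without control 2B the log2 fold change was -0.27.

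The inhibitors of the Ink4 family were led by Cdkn2d, which encodes p19Ink4d. It measured 33.0, 47.5, 31.9 and 32.3 CPM in VA-free libraries and 65.2, 50.0, 78.9 and 47.9 CPM in control libraries. The libraries did not overlap, but VA-free 2A reached nearly the level of control 2B. The means were 38.0 ± 8.40 (SD, n = 3) and 60.2 ± 0.234 CPM (n = 2), with a log2 fold change of -0.67 (SE 0.183, edgeR adjusted p = 0.0247). Cdkn2d was called in 10 of 21 alternatives, and the call was lost without VA-free mouse 1 or 3, without either control mouse and without control libraries 1A, 2A or 2B, with edgeR adjusted p between 0.0554 and 0.088.

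Cdkn2c, which encodes p18, did not differ beyond the spread. Its libraries ranged from 32.1 to 42.1 CPM in VA-free and from 32.6 to 49.0 CPM in control, and the log2 fold change was -0.185 (SE 0.154, edgeR adjusted p = 0.385). Cdkn2b, which encodes p15 and is known as a target of TGF-beta signalling, was scarce. It measured 1.19 to 1.58 CPM (56 to 140 counts) in VA-free and 2.14, 5.31, 2.21 and 2.06 CPM in control. The VA-free libraries lay below all control libraries, and control 1B stood far above the rest of its diet. The log2 fold change of -1.01 (SE 0.375) did not pass the test (edgeR adjusted p = 0.0707), and without control 1B it was -0.55 (0.24). It was called with DESeq2 (-1.02, adjusted p = 0.0335) and, in edgeR, without control mouse 2 (-1.38, 0.0252).

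Cdkn2a was the scarcest of the 10 genes. The locus on chromosome 4 (minus strand) has 2 first exons that are joined to the same second exon in different reading frames, and it thereby encodes p16Ink4a (Cdkn2a-201) and p19Arf (Cdkn2a-202). The first 60 coding bases of each, from the GENCODE M21 transcripts (GRCm38), show that the 2 products start differently, with the start codon in capitals.
Cdkn2a-201, p16Ink4a, chr4:89282052-89282111, minus strand: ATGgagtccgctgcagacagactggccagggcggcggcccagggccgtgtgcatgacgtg
Cdkn2a-202, p19Arf, chr4:89294464-89294523, minus strand: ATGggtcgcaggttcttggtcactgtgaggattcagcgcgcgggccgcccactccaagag
The first coding exon contributes 126 bases to p16Ink4a and 190 to p19Arf. The counts of p16Ink4a were 0, 2, 3 and 0 in VA-free and 0, 0, 18 and 0 in control. The counts of p19Arf were 21, 0, 0 and 5 in VA-free and 21, 3, 0 and 11 in control. Each library had estimated counts on 1 of the products only, and a count of 0 still allows up to 3 counts at this depth. Only 277 of the 852 bases of Cdkn2a-201 and 320 of the 895 bases of Cdkn2a-202 are its own. Reads of the shared bases were thus assigned by estimate, and libraries 2A and 2B of control mouse 2 were assigned to different products. Which product a library held cannot be told from these counts. Added per gene, the libraries held 2 to 21 counts, the mice measured 0.117 ± 0.1004 CPM (SD, n = 3) in VA-free and 0.269 ± 0.00863 CPM (n = 2) in control, and a difference was not detectable at this depth (log2 fold change -1.16, SE 0.836, edgeR adjusted p = 0.314). The value was -2.07 without VA-free mouse 1, -0.77 without VA-free mouse 2 and -0.58 without control 1A, not called in any of these.

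Rbl2 was the only one of the 10 genes called higher. The 250 bases before its start (RefSeq, GRCm38.p6) are shown with the match to TTTGAA, the core of the cell cycle homology region through which DREAM complexes bind, in capitals on the opposite strand.
Rbl2, chr8:91069807-91070056, plus strand: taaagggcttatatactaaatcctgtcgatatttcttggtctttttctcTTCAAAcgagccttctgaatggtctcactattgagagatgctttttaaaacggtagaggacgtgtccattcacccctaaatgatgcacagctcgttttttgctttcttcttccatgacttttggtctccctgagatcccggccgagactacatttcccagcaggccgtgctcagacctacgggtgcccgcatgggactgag
The match lay 201 to 196 bases before the start, and 16% of the 32851 promoters held these letters. Rbl2 measured 83.1, 86.1, 72.7 and 78.9 CPM in VA-free libraries and 58.96, 47.6, 50.5 and 60.7 CPM in control libraries. All VA-free libraries lay above all control libraries. VA-free was 1.51-fold higher than control (log2 fold change 0.595, SE 0.111, edgeR adjusted p = 0.0056). Rbl2 was called in 19 of 21 alternatives, all those without 1 mouse or library among them, and lost the call with 1 library per mouse (0.58, adjusted p = 0.0568) and with the length trend taken out (0.03, adjusted p = 0.865).
Rbl2 shares 693 exon bases with Aktip on the opposite strand, the SMART-Seq and Nextera XT kits do not record strand, and Aktip measured 60.4 to 66.2 CPM in VA-free and 63.6 to 169 CPM in control.

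Rb1, which encodes the retinoblastoma protein, measured 39.7, 36.5, 38.2 and 40.0 CPM in VA-free libraries and 32.2, 32.9, 43.1 and 33.7 CPM in control libraries. Control 2A was above all VA-free libraries and the other control libraries were below them. The log2 fold change of 0.14 (SE 0.121) did not pass the test (edgeR adjusted p = 0.394). The sum mixed transcripts whose shares differed between the diets. The full coding transcript Rb1-201 took 90.1% to 93.8% of Rb1 counts in VA-free libraries and 73.2% to 81.8% in control. Rb1-206, a noncoding transcript of 408 bases, took 4.87% to 7.66% in VA-free and 16.6% to 26.6% in control, at 1.86 to 3.04 against 5.94 to 8.59 CPM. All 408 of its bases lie in exons of Lpar6, a gene for a lysophosphatidic acid receptor on the opposite strand inside an Rb1 intron, and Lpar6 measured 19.3 to 22.6 CPM in VA-free and 50.7 to 64.2 CPM in control. Without strand, reads of Rb1-206 and Lpar6 cannot be told apart. On Rb1-201 alone, an alternative chosen after seeing the data, the log2 fold change was 0.36 (edgeR adjusted p = 0.0748), with 33.1 to 37.4 CPM in VA-free and 23.6 to 35.3 CPM in control. With the effective transcript length of each mouse as an offset, in which short transcripts count for more, Rb1 was called lower (-0.65, edgeR adjusted p = 0.00795).

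**Figure D3:**
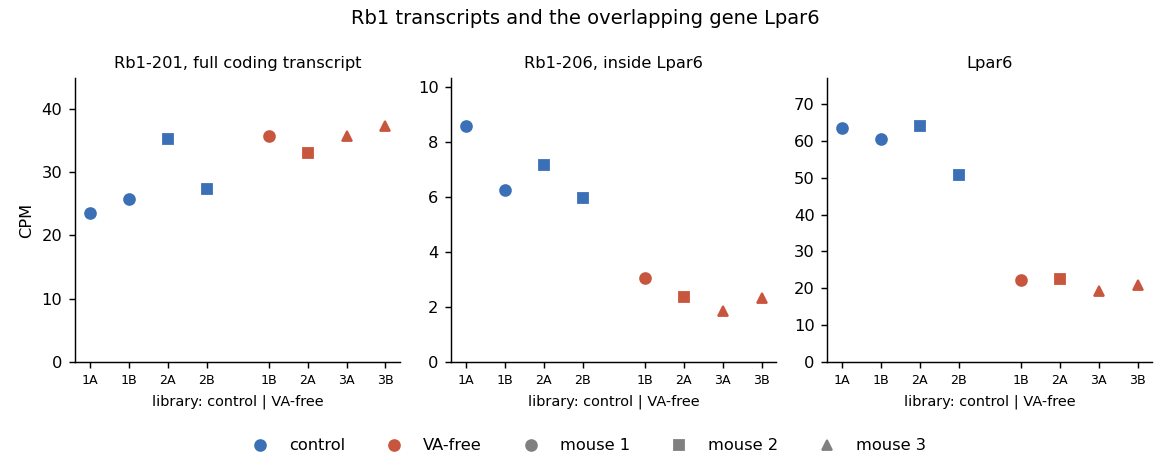
CPM (each y axis from 0) of the coding transcript Rb1-201, the short transcript Rb1-206 and the gene Lpar6 in each control (blue) and VA-free (red) library, with the mouse given by the shape. Rb1-206 and Lpar6 are lower in every VA-free library, whereas Rb1-201 overlaps between the diets through control 2A.

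Trp53 measured 139, 152, 174 and 164 CPM in VA-free libraries and 126, 139, 96.1 and 151 CPM in control libraries. The libraries overlapped, and control 2A was the lowest. The means were 155 ± 14.6 (SD, n = 3) and 129 ± 11.3 CPM (n = 2), with a log2 fold change of 0.27 (SE 0.129) that did not pass the test (edgeR adjusted p = 0.143). It was 0.175 without control mouse 2, 0.106 without control 2A and 0.449 without control 2B, not called in any of these. The coding transcripts Trp53-203 and Trp53-201 held most of the counts in overlapping shares (47.7% to 54.6% and 25.2% to 33.8% in VA-free, 49.9% to 59.1% and 25.2% to 36.2% in control). Trp53-205, annotated as a processed transcript without a protein, measured 12.0 to 13.5 CPM in VA-free and 2.92 to 6.63 CPM in control and did not overlap between the diets. It made up 7.76% to 8.61% of Trp53 counts in VA-free and 2.31% to 4.55% in control.

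Fold changes in these data followed gene length, which bears on the 10 genes because they differ in length. Over all genes the log2 fold change rose by 0.32 per doubling of the effective length, with medians of -0.63, -0.17, 0.20 and 0.53 in 4 equal bins from the shortest to the longest genes. Cdkn1a, Cdkn1c, Cdkn2a and Cdkn2d were in the shortest bin, of which 41.3% were called lower, and Rbl2 was in the longest, of which 38.7% were called higher. Cdkn1c, Cdkn2d and Rbl2 lay near the median of their bin, and Cdkn1a lay below it. Cdkn1b was in the third bin and was lower where the median was higher. With the length trend of each mouse removed, Cdkn1a (-0.77, edgeR adjusted p = 0.00687) and Cdkn1b (-0.87, 0.00952) remained lower, Trp53 became higher (0.43, 0.0489), and Cdkn1c (-0.32, 0.336), Cdkn2d (-0.19, 0.474) and Rbl2 (0.03, 0.865) were not called.

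**Figure D4:**
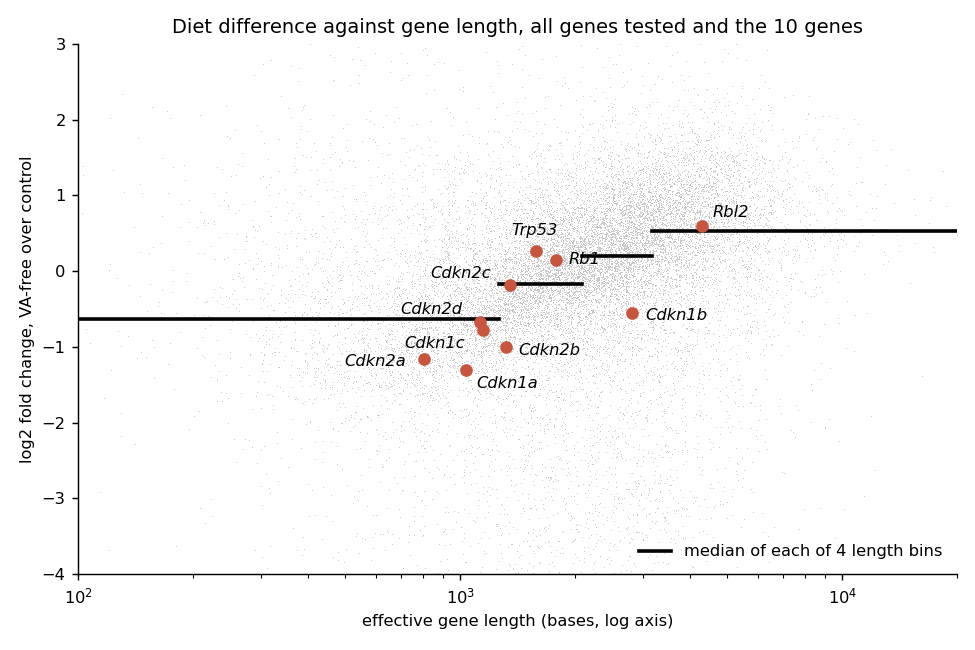
Log2 fold change (VA-free over control) against effective gene length (bases, log axis) for the genes tested (grey points, genes beyond the axes are not drawn) and the 10 genes (red), with black lines at the median of each of the 4 length bins. The bin medians climb from -0.63 to 0.53, with Cdkn1c, Cdkn2d and Rbl2 close to the line of their bin and Cdkn1a and Cdkn1b below it.

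**Figure D5:**
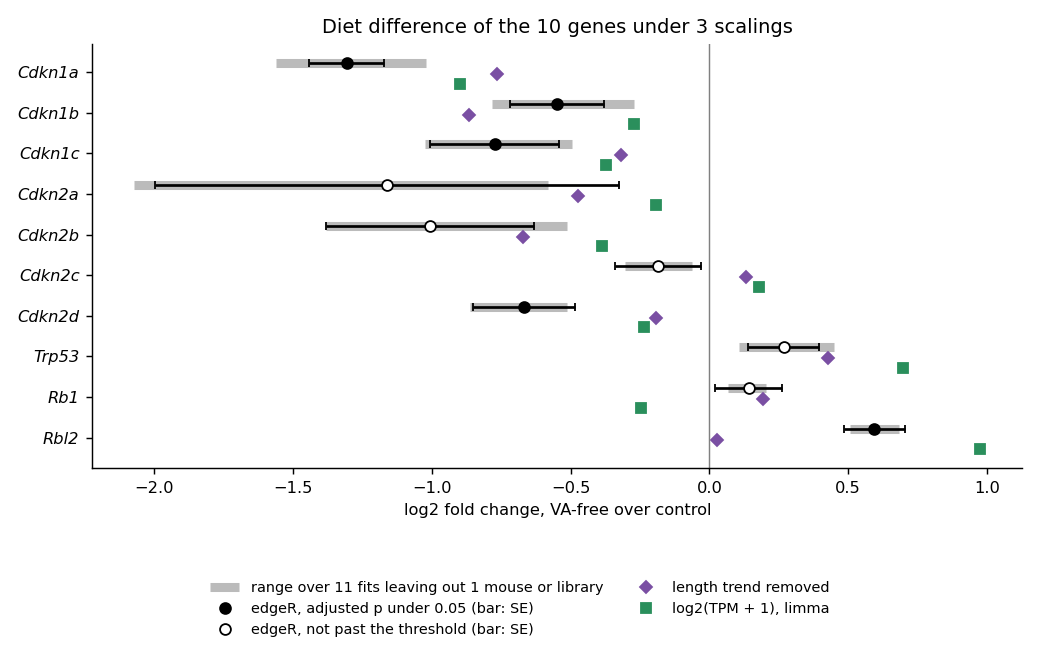
Log2 fold change (VA-free over control) of the 10 genes from edgeR (circles, filled where the adjusted p was under 0.05, with bars of 1 SE), with grey bars for the range over 11 fits that each left out 1 mouse or library, purple diamonds for the fit with the length trend removed and green squares for log2(TPM + 1). Cdkn1a stays between -1.31 and -0.77 in all 3, whereas Rbl2 lies at 0.595, 0.03 and 0.98, and Rb1 and Cdkn2c change sign.

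Compared per length, as TPM, the genes were ordered Cdkn1a, Cdkn1c, Trp53, Cdkn2d, Cdkn2c, Rb1, Rbl2, Cdkn1b, Cdkn2b and Cdkn2a, with means over the 5 mice from 1108 TPM to 0.33 TPM. Cdkn1a measured 824 ± 84.2 TPM (SD, n = 3) in VA-free and 1533 ± 30.2 TPM (n = 2) in control, and Cdkn1c measured 710 ± 170 and 914 ± 231 TPM. These neighbours overlapped in VA-free mice (747 to 914 against 514 to 812 TPM) but not in control mice (1511 to 1554 against 751 to 1077 TPM). Trp53 (178 ± 13.02 and 109 ± 9.10 TPM) stood apart from its neighbours in the order. Cdkn2d overlapped with Cdkn2c in VA-free mice (52.1 to 78.1 against 44.8 to 53.4 TPM) but not in control mice (70.5 to 71.4 against 39.9 to 44.1 TPM). Rb1 lay above Rbl2 in control mice (36.8 to 38.2 against 16.9 to 17.4 TPM), and the pair overlapped in VA-free mice (28.0 to 35.8 against 31.4 to 37.6 TPM). The Rb1 value was mostly Rb1-206 in control, since that short transcript held 68.1% to 83.0% of Rb1 TPM there and 36.8% to 48.4% in VA-free. Cdkn1b (5.98 ± 0.796 and 7.38 ± 0.105 TPM), Cdkn2b (1.99 ± 0.299 and 2.98 ± 1.19 TPM) and Cdkn2a (0.263 ± 0.229 and 0.430 ± 0.0520 TPM) did not overlap with each other.

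Cdkn1a and Cdkn1c together made up 90.6% to 96.4% of the summed TPM of the 7 inhibitors in a library. The Cdkn1a share was 47.1% to 53.6% in VA-free libraries and 53.9% to 63.5% in control, and the summed level was 1393 to 1851 TPM against 2014 to 3499 TPM. Cdkn1a TPM were 4.44 to 4.90 times Trp53 TPM in VA-free libraries and 14.4, 11.8, 29.8 and 7.86 times in control, where the highest ratio was that of control 2A. The Cdkn1a share, the summed level and the ratio to Trp53 did not overlap between the diets.

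On the TPM scale, tested with limma on log2(TPM + 1), Cdkn1a remained lower (-0.90, adjusted p = 0.00246), Rbl2 remained higher (0.98, 0.00131) and Trp53 was called higher (0.70, 0.00241). Cdkn1b, Cdkn1c and Cdkn2d were not called. The median of all genes was 0.192 on this scale, and calls over all genes split into 2637 lower and 5799 higher, compared with 4056 lower and 3403 higher on counts. Measured on the TPM scale from that median instead of from 0, Cdkn1a lay further below and Rbl2 and Trp53 less far above.

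The genes that act on these 10, or that they act on, were taken from lists written with earlier results of these data known. They are given by their counts, to be read against the 22.5% of all genes called lower and the 18.9% called higher. With the length trend removed, 3166 of all 17997 genes were called lower and 2174 higher. Of 16 genes listed as CDKs and cyclins bound by the inhibitors, 5 were lower, with a median log2 fold change of -0.44. The list also holds the CDK-activating kinase and the chaperone Cdc37, so not every member is bound by an inhibitor. Calls numbered 2 without VA-free mouse 1 or 2 or control 1A or 2A, 3 without VA-free mouse 3 or control 2B, and 3 with the length trend removed. Cyclin D2 (Ccnd2) measured 12.6 CPM in VA-free and 91.1 CPM in control (-2.86, SE 0.153, edgeR adjusted p = 0.000212). The other lower members were Cdk2 (-0.45) and all 3 parts of the CDK-activating kinase, Cdk7 (-0.52), Ccnh (-0.57) and Mnat1 (-0.44). Cdk4 (213 against 242 CPM), Ccnd1 (277 against 297), Ccnd3 (347 against 281) and the chaperone Cdc37 (158 against 171), the most abundant of the list, did not pass the test. Ccna1 did not pass the filter.

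Of 21 regulators of p53, 10 were higher and 2 lower, with a median of 0.58, and 9 to 13 were called when 1 mouse or library was left out. Mdm2, the ubiquitin ligase that degrades p53 and is itself a p53 target, was higher (139 against 95.0 CPM, log2 fold change 0.55, SE 0.126, edgeR adjusted p = 0.0129). Higher too were the deubiquitinase Usp7 (0.88), the acetyltransferase Ep300 (1.17), the kinase Hipk2 (1.17) and Trp53bp1 (1.15), whose product binds at DNA breaks, whereas the checkpoint kinase Chek2 was lower (-1.19). Crebbp, an abundant acetyltransferase gene, did not pass the test (0.26, edgeR adjusted p = 0.147). Of 36 p53 target genes, a list without Cdkn1a, 10 were lower and 8 higher, near the shares over all genes, with a median of 0.12. Those called numbered 9 with the length trend removed, 7 without control 2B, 10 without control 1A and 11 without VA-free mouse 2 or 3. Among those lower were Plk2 (365 against 671 CPM, -0.88), Perp (0.676 against 5.99 CPM, -3.16), a gene of cell junctions, Dcxr (-1.63), Tigar (-1.31) and the death receptor gene Tnfrsf10b (-1.17). Gadd45a, a DNA damage gene, was higher (265 against 177 CPM, 0.58), and the abundant targets Btg2 (0.35, edgeR adjusted p = 0.186) and Ephx1 (-0.12, 0.54) did not pass the test.

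Of 19 partners of the pocket proteins 6 were higher and 2 lower, with a median of 0.36, and 3 were called with the length trend removed and 4 without control 2B. The E2F partners Tfdp1 (0.51) and Tfdp2 (0.96), the DREAM kinase gene Dyrk1a (0.88) and Foxm1 (1.22) were higher, and the MuvB subunit gene Lin37 was lower (-1.33). Rbbp4, the most abundant, did not pass the test (0.40, edgeR adjusted p = 0.241). Of 31 E2F target genes 5 were lower and 3 higher, with a median of -0.09, and 5 were called with the length trend removed and 13 without control mouse 1. Pcna, the clamp of DNA polymerases, was lower (108 against 223 CPM, -1.05), as were Prim1 (-1.08) and Rfc4 (-1.06), and Pole was higher (1.32). Mcm6, Mcm7 and Rrm1 did not pass the test (edgeR adjusted p between 0.0969 and 0.591).

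Of 15 genes that act in degradation of p27 and p21, 4 were lower and 3 higher, with a median of 0.28, and 2 were called with the length trend removed and 4 without VA-free mouse 1 or 3. Parts of the SCF ligase were lower, namely Rbx1 (90.9 against 218 CPM, -1.26), Cks1b (-1.13) and Skp1a (-0.81), while Ddb1, of the CUL4 ligase, was higher (535 against 239 CPM, 1.16), as was the export factor gene Xpo1 (0.90). Cul1 (0.17, edgeR adjusted p = 0.35) and Skp2 (0.65, 0.0534), the subunit that binds p27, did not pass the test. Of 25 genes listed as Polycomb genes, 10 were higher and 1 lower, with a median of 0.36. Polycomb proteins silence Cdkn2a in many cells. The list also holds the histone demethylase genes Kdm6a (0.93, among the higher) and Kdm6b, so not every member is a silencer. Calls numbered 4 with the length trend removed, 3 without control 2B, 6 without VA-free mouse 3 and 7 without VA-free mouse 1 or control 1A. Phc3 (1.22), Pcgf3 (1.08), Jarid2 (1.02) and Phc1 (0.94) changed most among the higher genes. Rbbp7, Ezh1 and Phc2 did not pass the test (edgeR adjusted p between 0.079 and 0.366). Of 29 transcription regulators of CDK inhibitors, 15 were higher and 4 lower, with a median of 0.50, and 9 were called without control 2B. The Notch target Heyl (1.52), Smad3 (1.504), the retinoid X receptor gene Rxra (1.37) and Spry1 (0.69) were higher, and Id1 (-1.67) and Klf6 (-0.56) were lower. Spry1 encodes a signalling inhibitor rather than a transcription regulator. Heyl, Spry1, Pax7 and Myod1, all higher, are also among the MuSC markers above. Myc (0.48, edgeR adjusted p = 0.0527) and Id3 (-0.19, 0.664) did not pass the test.

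Cdkn1c lies in the imprinted Kcnq1 cluster on chromosome 7, where 5 of 12 genes were lower, 2 were higher and the median was -0.465, and 4 were called without VA-free mouse 2, control mouse 2 or control 2B. Besides Cdkn1c, the lower genes were Cd81 (686 against 1519 CPM, -1.15), Kcnq1 (0.648 against 5.48 CPM, -3.09), Slc22a18 (0.186 against 2.31 CPM, -3.66) and Ascl2 (0.0420 against 0.253 CPM, -2.50). Osbpl5 (114 against 48.2 CPM, 1.23) and Trpm5 (2.62 against 0.902 CPM, 1.54) were higher. Cars (0.31), Nap1l4 (-0.16), Tssc4 (0.06), Tspan32 (0.09) and Phlda2 (-1.73) did not pass the test (edgeR adjusted p between 0.0595 and 0.935). Beside Cdkn2a and Cdkn2b, Mtap (40.1 against 42.4 CPM, -0.08), Dmrta1 (0.87) and Elavl2 (-0.03) did not pass the test (edgeR adjusted p between 0.388 and 0.989).

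Over the 8 libraries the log2(CPM + 1) values of Cdkn1a varied with those of Cdkn1c (Pearson r = 0.883) and Cdkn2d (0.862) and against Rbl2 (-0.913) and Trp53 (-0.807). Cdkn1b varied with none of Cdkn1a (0.253), Cdkn1c (-0.01) or Cdkn2d (0.207), and it went against Rb1 (-0.853). These values are descriptions over 8 libraries of 5 mice that share the diet difference, library pairs of a mouse and gene length. Of 9558 genes whose mean reached 10 CPM, the 3 whose pattern was most like a gene were Pbdc1, Sec62 and Pttg1 for Cdkn1a (r from 0.994 to 0.995), Gjc1, Gpx7 and Arl16 for Cdkn1c (from 0.973 to 0.985), and Mical2, Arhgap31 and Pdgfrb for Cdkn1b (from 0.975 to 0.983). For Cdkn2d they were Phkg2, Spopl and Kdelr3 (from 0.970 to 0.995), and for Cdkn2c Mettl7a1, Hyal1 and B4gat1 (from 0.874 to 0.94). Trp53 was closest to Cdk19, Map3k6 and Cxxc1 (from 0.979 to 0.981), Rb1 to 6820431F20Rik, Bmi1 and Ewsr1 (from 0.968 to 0.974), and Rbl2 to Fam206a, Smchd1 and Map2k4 (from 0.984 to 0.987).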

How the data were processed

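The authors quantified 75 bp single-end reads with kallisto 0.46.2 against the GRCm38 transcriptome of Ensembl 96 and deposited estimated counts and TPM per transcript and library, together with transcript lengths, without normalization between libraries. Of 118489 transcripts 116816 were matched to genes of the same release (GENCODE M21). Counts without a gene, 0.647% to 0.756% of a library, were left out. Estimated counts were added per gene and over libraries of a mouse, and rounded. The quasi-likelihood test of edgeR 4.0.16 (R 4.3.3; TMM; filterByExpr) compared VA-free with control mice, with Benjamini-Hochberg adjustment over 17997 genes and a threshold of 0.05. The paper names tximport and DESeq2, and both enter as alternatives (DESeq2 1.42.0, and an effective length offset), as does limma 3.58.1 on TPM with pseudocounts of 1 and 0.1. The members and the gene lists were chosen with earlier results of these data known. Genes named from a list were up to 4 of the most abundant and up to 4 of those past the threshold with the largest change. Mnat1, Pax7, Myod1, Skp2, Kdm6a and Kdm6b were added after their values were seen. Motifs were searched in the 250 bases before 32851 RefSeq starts (8 of the 10 genes have 11 starts in the table; Cdkn1c and Rb1 have none). The tests were checked on simulated counts with known changes, where DESeq2 and the fit with a replicate block called many more unchanged genes than edgeR did.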

Additional observations from a re-analysis of the deposited data

Results flagged for a closer look

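Among the 10 genes in 4 libraries per diet, the gap from the extreme library to its nearest neighbour was larger than Dixon's critical share of the whole range in 3 of 20 groups, where chance gives about 1 in 20 for independent samples. Libraries of the same mouse are not independent, so this rate is only approximate here. Cdkn2b in control 1B lay above the other control libraries with a gap of 0.936 of the range (5.31 against 2.06 to 2.21 CPM, on 234 counts). Cdkn2d in VA-free 2A lay above the other VA-free libraries with a gap of 0.917 of the range (47.5 against 31.9 to 33.0 CPM). Rb1 in control 2A lay above the other control libraries with a gap of 0.851 of the range (43.1 against 32.2 to 33.7 CPM). Neither diet of Cdkn1a or Rbl2 was among them.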

How the results depend on the processing

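Cdkn1a kept its direction and its call under all 21 alternatives and Rbl2 under 19, whereas Cdkn1b, Cdkn1c and Cdkn2d kept their direction under all and their call under 9, 11 and 10. Cdkn2a and Cdkn2c were not called under any of them, Cdkn2b under 2 and Trp53 under 3. The sign of Cdkn2c turned with the length trend removed (0.133) and on TPM with a pseudocount of 1 (0.179) or 0.1 (0.183). The sign of Rb1 turned with an effective length offset (-0.654, edgeR adjusted p = 0.00795) and on TPM (-0.248 and -0.255); the share of the short Rb1-206 sets its effective length. Of the 10 genes 5 were called, and 3 with 8 separate libraries, 1 library per mouse, the length trend removed, either TPM pseudocount or the replicate block. Over all genes, 6219 of 16007 were called with 8 separate libraries, 5113 of 16667 with 1 library per mouse and 5340 of 17997 with the length trend removed. Without 1 mouse or library, 2 to 5 were called, 2 of them without VA-free mouse 1 or control 2B. The same range was 9 to 13 for p53 regulators, 7 to 17 for p53 targets, 2 to 11 for CDKs and cyclins, 4 to 9 for pocket protein partners, 6 to 13 for E2F targets, 4 to 10 for p27 and p21 degradation, 3 to 13 for Polycomb genes, 4 to 8 for the Kcnq1 cluster, 0 to 0 beside Cdkn2a, 9 to 19 for transcription regulators and 4291 to 7741 for all genes, the fewest without control 2B.

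Calls among CDKs and cyclins were 8 without a filter, 9 with DESeq2, 2 with 8 libraries, 3 with the length trend removed, 3 on TPM with a pseudocount of 0.1 and 1 with the replicate block. With 1 library per mouse, 10 p53 targets, 4 degradation genes, 6 Polycomb genes and 12 transcription regulators were called, beside 5113 of 16667 genes over all. With the length trend removed, calls were 9 p53 targets, 3 pocket protein partners, 5 E2F targets, 2 degradation genes and 4 Polycomb genes, beside 5340 of 17997 genes over all. On TPM, 11 degradation genes were called with either pseudocount, 17 Polycomb genes with a pseudocount of 1 and 13 E2F targets with 0.1. On TPM with a pseudocount of 0.1 the median of all genes was 0.354 and calls split into 2631 lower and 5867 higher. The replicate block gave 9 p53 targets, 5 pocket protein partners, 7 Polycomb genes and 12 transcription regulators. The cause of these changes was not tested.

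Whether mice of the same replicate number were paired cannot be told from these data. Deviations from the diet mean correlated at -0.065 for mice of number 1 and at 0.01 for number 2. With 2 control mice the deviations of 1 mirror those of the other, so the opposite pairing only turns the sign. With the replicate block, Cdkn1b (-0.52, edgeR adjusted p = 0.192) and Cdkn2d (-0.59, 0.0768) were not called. The replicate block made many false calls on simulated counts. Depth limits Cdkn2a, at 2 to 21 counts per library.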
